A study of Mus musculus with 2 samples.

Results

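Barcodes that carried both neutrophil and macrophage transcripts were described in single-cell RNA sequencing of leukocytes from mouse hearts. They were selected on their own counts of unique molecular identifiers (UMIs), each of which stands for 1 captured RNA molecule. A barcode was kept when it held more than 500 and fewer than 6000 detected genes and under 25% mitochondrial UMIs. A kept barcode became a member when S100a8 and S100a9 made up at least 1% of its UMIs, when Retnlg, Csf3r and Cxcr2 together had at least 3 UMIs, and when C1qa, C1qb and C1qc together (C1q) had at least 10 UMIs. Of 11078 kept barcodes, 316 met these limits, 128 in the control library and 188 in the isoproterenol (ISO) library. Because the 8 genes of the rule chose the members, their levels are given as a description only.

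The study asked how the immune cells of the heart respond to a high dose of isoproterenol, a β-adrenergic agonist used to model takotsubo syndrome. Cells that carried the leukocyte antigen CD45 were taken from hearts of female wild-type C57BL6 mice. The labels give no age, and the published methods give 8 to 16 weeks for mice injected with ISO. The ISO mice received 200 mg/kg intraperitoneally and hearts were taken after 24 h, and the control mice received vehicle. The labels print the ISO treatment for both samples, so the control group was known from its title and from the published paper. Each group was 1 library made from 3 pooled hearts, with 15000 cells loaded. With 1 library per group, animals cannot be told apart within a library, and no difference between the groups was tested. Intervals are exact 95% intervals (Clopper-Pearson for shares, Poisson for UMI sums, order statistics for medians), and they cover counting error only.

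The control file held 5927 barcodes and 47382455 UMIs, of which 5641 barcodes with 41651434 UMIs were kept. The ISO file held 5514 barcodes and 58495112 UMIs, of which 5437 barcodes with 55443553 UMIs were kept. The median kept barcode held 4790 UMIs in the control and 8537 in the ISO library, so the ISO library was the deeper of the pair. The libraries shared 15 barcode sequences, which included 1 control member and 2 ISO members. No doublet caller was run and no barcode was removed as a doublet, because barcodes with transcripts of a pair of lineages were the object of the description.

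Neutrophils are short-lived granulocytes that enter injured heart muscle early, and macrophages take up neutrophils that die there, a process called efferocytosis. Neutrophils hold little RNA compared with macrophages, while resident macrophages of the heart make the complement component C1q in large amounts. In droplet sequencing, a barcode with transcripts of a pair of lineages can come from cells captured together, from cells that adhere to each other, or from a cell that took up another.

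S100a8 and S100a9 encode the subunits of calprotectin, an abundant protein of the neutrophil cytosol. Retnlg encodes a resistin-like protein of neutrophils, Csf3r the receptor of the growth factor G-CSF, and Cxcr2 a receptor for neutrophil-attracting chemokines. S100a9 reached 15366 CPM (UMIs scaled to a total of 1000000) in control members and 14654 CPM in ISO members. Retnlg stood at 1840.3 and 2866 CPM, and Cxcr2 at 338 and 208 CPM. The complement gene C1qa reached 3478 and 1988 CPM, C1qb 3157 and 2094 CPM, and C1qc 2102 and 1151 CPM. The rule itself requires these transcripts in members. B cell barcodes held traces of them. Summed over the 5 neutrophil genes of the rule, they stood at 26.1 CPM in control B cell barcodes, with S100a9 highest at 13.3, and at 333 CPM in ISO B cell barcodes, with S100a8 highest at 183. The C1q genes stood at 77.2 and 26.0 CPM there. These B cell barcodes were chosen for 3 or fewer C1q UMIs and for less than 1% S100a8 and S100a9, so their low levels are partly built in. A defining neutrophil surface marker, Ly6g, had 0 UMIs in control members and 1 UMI in ISO members. It was at 0 in comparator neutrophils and macrophages of both libraries too, so these counts cannot be used to identify a neutrophil by Ly6g.

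In the mouse genome (GRCm38), C1qb, C1qc and C1qa lie beside each other on chromosome 4, from 136880129 to 136898803. S100a8 (chr3:90668978-90670035) and S100a9 (chr3:90692632-90695721) are neighbours as well. Retnlg lies at chr16:48872621-48874496, Csf3r at chr4:126024550-126044440 and Cxcr2 at chr1:74153989-74161246. The rule thus draws on loci on 4 chromosomes.

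Few members sat close to the C1q limit. In the control, 7 members had 10 to 14 C1q UMIs and 3 neutrophil barcodes just outside had 5 to 9. Among ISO barcodes 9 members had 10 to 14 and 16 neutrophil barcodes had 5 to 9. The median member held 96.5 C1q UMIs in the control and 63.5 in the ISO library, and 110 of 128 and 149 of 188 members held 30 or more. The limit on S100a8 and S100a9 was more crowded. In the control, 12 members lay between 1% and 1.2%, and 20 barcodes that passed the other limits lay between 0.8% and 1%. The ISO counts were 24 and 28. For Retnlg, Csf3r and Cxcr2, 0 control members and 4 ISO members held 3 or 4 UMIs, and 1 and 2 barcodes outside held 1 or 2. Csf3r, which macrophages transcribe at a low level, carried the neutrophil limit alone in 0 control members and 1 ISO member without a Retnlg or Cxcr2 UMI.

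Barcodes that passed both neutrophil limits numbered 264 in the control, or 4.68% of kept barcodes, and 437 in the ISO library, or 8.04%. Members were 48.5% of them in the control (95% interval, 42.3%–54.7%) and 43.0% in the ISO library (38.3%–47.8%). Neutrophil barcodes of 3 or fewer C1q UMIs served as comparators, 131 in the control and 228 in the ISO library. Only 5 and 21 neutrophil barcodes fell in between, with 4 to 9 C1q UMIs. C1q UMIs in neutrophil barcodes were therefore split between near 0 and many, with few values between. Of all kept barcodes, members were 2.27% in the control (1.90%–2.69%) and 3.46% in the ISO library (2.99%–3.98%). With every barcode thinned to 2000 UMIs and the limits unchanged, the shares were 1.34% and 1.25%, so the higher ISO share was not seen at equal depth. Of neutrophil barcodes thinned in this way, members were 32.6% in the control and 20.1% in the ISO library. Of all kept barcodes with 10 or more C1q UMIs, members were 5.91% of 2164 in the control and 11.0% of 1711 in the ISO library.

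C1q in barcodes of a further lineage was not limited to neutrophils. In the control, 10 or more C1q UMIs were found in 28.7% of 2184 B cell barcodes, 64.1% of 696 T cell barcodes, 17.9% of 569 natural killer (NK) cell barcodes and 36.0% of 2050 dendritic cell barcodes, each called by 3 or more UMIs of its marker genes. The ISO shares were 48.9% of 190, 52.6% of 213, 36.4% of 99 and 27.4% of 745. Without thinning, the member shares of 48.5% and 43.0% among neutrophil barcodes lay within the range of these 4 lineages in each library. As among neutrophil barcodes, counts in between were rare, with 4 to 9 C1q UMIs in 0.733% of control B cell barcodes and 3.16% of ISO B cell barcodes. These lymphoid barcodes were also deep when they carried C1q. B cell barcodes of the control held a median of 15644 UMIs with 10 or more C1q UMIs and 3479 with 3 or fewer, a ratio of 4.50. The ISO medians were 11710 and 6790 UMIs, a ratio of 1.72.

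Members often carried markers of yet another lineage. At 3 or more UMIs of B, T, NK or dendritic cell markers, this held for 56 of 128 control members (43.8%) and 17 of 131 control comparators (12.98%). Among ISO barcodes it held for 38 of 188 members (20.2%) and 21 of 228 comparators (9.21%). Among control members 30 carried B cell markers (Cd79a, Cd79b and Ms4a1, parts of the B cell receptor and CD20), 21 T cell markers, 3 NK cell markers and 39 dendritic cell markers. Among ISO members the counts were 10, 16, 5 and 20, so B cell and dendritic cell markers were both less frequent there. Summed over the 6 B cell genes in the files, all of them with UMIs, control members held 649 CPM, comparators 917 and macrophages 164, with Igkc the highest in members. ISO members held 88.8 CPM, comparators 78.7 and macrophages 32.7. Of the 5 T cell genes, Trac was at 0 and the other genes summed to 164 CPM in control members, 66.97 in comparators and 25.3 in macrophages. The ISO sums were 63.1, 30.04 and 7.96 CPM. T cell transcripts were thus higher in members than in comparators. Macrophage barcodes were chosen to hold 1 or fewer UMIs of B, T, NK or dendritic cell markers each, so their low lymphoid sums are built in. A deeper barcode reaches a fixed number of UMIs more readily, and the part of depth in these counts was not tested.

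Members held more UMIs than comparators in both libraries. The rule favours this, since 10 C1q UMIs are reached more readily in a deep barcode. Control members held a median of 12094 UMIs (10637–13959), with a range from 1934 to 33466. Control comparators held 2803 (2704–3078), and macrophage barcodes without neutrophil or lymphoid transcripts held 6300 (6030–6533). The ratio of members to comparators was 4.31 in the control. ISO members held a median of 13188 UMIs (12057–15218), with a range from 4093 to 37622. ISO comparators held 8973 UMIs (7995–10097) and ISO macrophage barcodes 8995 (8638–9404). The ratio of members to comparators was 1.47 in the ISO library, where the comparators themselves were deep.

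Genes per barcode followed the same order. Control members showed a median of 3562 genes, comparators 1077 and macrophages 2170.0. ISO members showed 3517 genes, comparators 2681 and macrophages 2725. At a common depth of 2000 UMIs, control members showed 1083 genes, comparators 874 and macrophages 994.5. Members thus had the most varied RNA at equal depth in the control. At that depth ISO members showed 1055.5 genes, comparators 998.5 and macrophages 1031. The common depth left out 1 control member, 14 control comparators and 35 control macrophages, and none in the ISO library.

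The depth of the ISO comparators went with transcripts of monocytes, the blood-borne precursors of macrophages that make little C1q. A sum of 7 monocyte and macrophage genes (Ccr2, Ly6c2, Csf1r, Fn1, Ms4a6c, F13a1 and Emr1), chosen after the data were seen, was counted in each barcode. Of control comparators, 2 of 131 (1.53%) held 10 or more of these UMIs. Of ISO comparators, 155 of 228 did (68.0%; 61.5%–74.0%). A C1q limit alone therefore left most ISO comparators with transcripts of the monocyte lineage. Counted by 10 or more C1q or monocyte UMIs, neutrophil barcodes with mononuclear phagocyte transcripts were 131 of 264 in the control (49.6%; 43.4%–55.8%) and 361 of 437 in the ISO library (82.6%; 78.7%–86.0%). B cell barcodes of few C1q UMIs moved the same way, with 10 or more monocyte UMIs in 23 of 1490 in the control (1.54%) and 47 of 85 in the ISO library (55.3%). How far free monocyte RNA, captured pairs and the greater depth of the ISO library each contributed was not tested.

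Comparators with 1 or fewer monocyte UMIs, 95 in the control and 31 in the ISO library, are called low-monocyte comparators. Their median depth was 2668 UMIs in the control and 3786 (3439–4525) in the ISO library. Those ISO comparators with 10 or more monocyte UMIs held 10965 UMIs (10407–11928). Against the low-monocyte comparators, the depth of members was 4.53 times higher in the control and 3.48 times higher in the ISO library. A fixed number of monocyte UMIs is passed more readily by a deep barcode, so the low depth of these comparators is partly built in, and the part of that limit in the higher ISO ratio was not tested. The medians of low-monocyte comparators and macrophages add up to 8968 UMIs in the control and 12781 in the ISO library. Member depth was 1.35 and 1.03 times these sums.

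**Figure D1:**
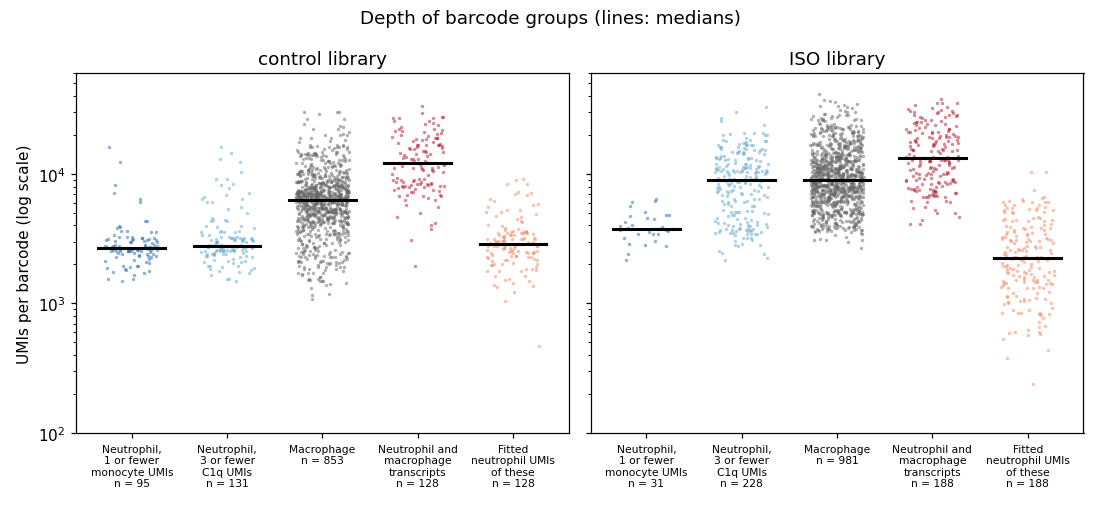
UMIs per barcode (log axis) in members, comparator neutrophils, comparators with 1 or fewer monocyte UMIs, macrophage barcodes, and the neutrophil UMIs of members by a mixture fit with low-monocyte comparators, in each library (points: barcodes; lines: medians). Members sit highest, with medians of 12094 UMIs in the control and 13188 in the ISO library.

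**Figure D2:**
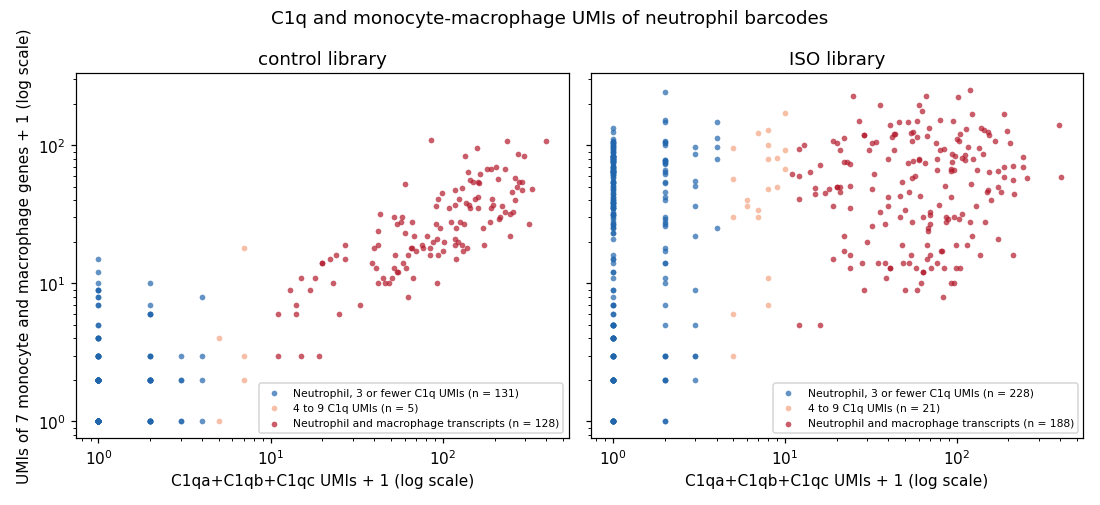
C1q UMIs against UMIs of the 7 monocyte genes in each neutrophil barcode of the control and ISO libraries (log axes, 1 added to each count), with members, comparators and barcodes in between marked. With 3 or fewer C1q UMIs, 2 of 131 control barcodes and 155 of 228 ISO barcodes reached 10 monocyte UMIs.

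Neutrophil genes outside the rule were counted per barcode to ask how much neutrophil RNA a member held. The list of 17 neutrophil markers, 16 of them in the files, includes the gelatinase gene Mmp9, the histidine decarboxylase gene Hdc and the decoy receptor gene Il1r2. Control members held a median of 45.5 of these UMIs (41–51), comparators 48 (44–52) and macrophages 0. ISO members held 80.5 (69–85), comparators 81 (75–91), low-monocyte comparators 112 (75–136) and macrophages 3. A member thus held about as many neutrophil marker UMIs as the median of all comparators, while it held more UMIs in total. Against low-monocyte comparators the ISO member median was lower, 80.5 against 112, with intervals that overlapped. The rule genes are a description only, with a median of 31 Retnlg, Csf3r and Cxcr2 UMIs in control members and 25 in comparators, and 33 and 26 in the ISO library. The share of S100a8 and S100a9 was lower in members, at 2.33% of UMIs against 8.24% in control comparators and 2.02% against 3.10% in ISO comparators. In UMIs it was not lower, at 293 against 243 in the control and 312 against 309.5 in the ISO library.

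Macrophage genes outside the rule were counted in the same way. The list of 12 includes the growth factor receptor gene Csf1r, the apolipoprotein gene Apoe and the mannose receptor gene Mrc1. Control members held a median of 166 of these UMIs (148–200), macrophages 112 (104–121) and comparators 2. ISO members held 111.5 (101–133), macrophages 93 (87–98), comparators 38.5 and low-monocyte comparators 1. The median member therefore held at least as many macrophage marker UMIs as the median macrophage barcode. C1q, which chose both kinds of barcode, stood at a median of 82 UMIs in control macrophages and 48 in ISO macrophages.

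Amounts of RNA of both kinds varied widely among members. Between the 5th and 95th percentiles, neutrophil marker UMIs ran from 21 to 131 in control members and from 31 to 198 in ISO members. Macrophage marker UMIs ran from 34.4 to 508 and from 34.4 to 303. Across the 128 control members, log10 C1q UMIs and log10 UMIs of Retnlg, Csf3r and Cxcr2 had a Pearson r of 0.369 and a Spearman rho of 0.322. Across the 188 ISO members r was 0.192 and rho 0.175. The points share a library and depth enters both axes, so these weak correlations are a description only.

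The nuclear RNAs Malat1 and Neat1 stay in the nucleus and were counted as a measure of nuclear content. Control members held a median of 295.5 of these UMIs, comparators 80 and macrophages 127. ISO members held 217.5, low-monocyte comparators 117 and macrophages 116. In both libraries the median member thus held more of these UMIs than the comparators given here and the macrophages. Members were also deeper than these groups, and the part of depth in these counts was not tested. As a share of UMIs the values were 2.41% in control members, 2.73% in comparators and 2.02% in macrophages. The ISO shares were 1.59% in members, 1.62% in all comparators, 2.63% in low-monocyte comparators and 1.25% in macrophages. By share, members thus lay between low-monocyte comparators and macrophages in the ISO library. Over all the nuclear long noncoding RNAs of the list, 3 of 5 genes could be compared and 0 changed by 2-fold between ISO and control members. Mitochondrial UMIs made up 3.03% of control members, 1.98% of comparators and 4.27% of macrophages, so members lay between the other groups. ISO barcodes gave 1.85%, 1.76% and 2.08%.

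Each member was then fitted as a mixture of reference profiles from its own library, with the 8 rule genes and mitochondrial genes left out. The references were comparator neutrophils, macrophage states, monocytes, dendritic cells, B cells and T, NK or innate lymphoid cells. In control members the fit gave a median of 28.4% neutrophil (25.6%–30.3%) and 56.5% macrophage (53.5%–61.0%). The median fitted amounts were 3216 neutrophil UMIs, or 1.15 times the depth of a comparator, and 6468 macrophage UMIs, or 1.03 times the depth of a macrophage barcode. With barcodes of a further lineage left out, the neutrophil ratio was 0.944. In total a control member was deeper than the summed medians of comparators and macrophages, 9103 UMIs, by a ratio of 1.33, and without barcodes of a further lineage its depth fell from 4.31 to 3.20 times that of comparators. The ISO ratio to the summed medians was 0.734 with all comparators. Held-out control comparators scored a median of 98.2% neutrophil, and held-out resident macrophages scored near 0%, with 4.45% at the 95th percentile.

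In ISO members the same fit gave 46.7% neutrophil (40.9%–53.1%) and 34.8% macrophage (32.6%–38.8%). The comparators of that library carried monocyte transcripts, and held-out comparators scored a median of only 72.0% neutrophil. With low-monocyte comparators as the neutrophil reference, ISO members scored 17.6% neutrophil (15.5%–20.3%) and 59.2% macrophage (54.7%–63.4%). The choice of neutrophil reference thus moved the shares in the ISO library by far more than their counting intervals. With that reference, control members scored 25.4% neutrophil and 60.1% macrophage, near their values with all comparators. ISO members then held 2255 neutrophil UMIs (1897–2578), 0.596 times the depth of low-monocyte comparators, and 7304 macrophage UMIs (6669–8756), 0.812 times the depth of macrophages. Held-out low-monocyte comparators scored 95.6% neutrophil in the control and 87.0% in the ISO library, where only 31 barcodes made the reference. The fitted neutrophil part of an ISO member was thus smaller than a low-monocyte comparator, and the part of that low score in the difference was not tested.

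The partner was described by the macrophage state with the largest fitted share, using the low-monocyte reference. States were set by marker limits on macrophage barcodes, and those described are resident (Timd4, Lyve1 and Folr2), Ccr2, high in MHC class II, and other, as shares of all members. Timd4 encodes a receptor for dying cells, Lyve1 a hyaluronan receptor and Folr2 a folate receptor, while Ccr2 is the chemokine receptor of recruited monocytes. In the control, 66 of 128 members had a resident partner (51.6%; 42.6%–60.5%), against 51.2% of 848 macrophage barcodes. Macrophage barcodes were held out of the references used to fit them, while members were fitted with the full references. MHC class II high partners made up 34.4% of members (26.2%–43.3%) and 40.1% of macrophages. Ccr2 partners made up 9.38% of members (4.94%–15.8%) and 4.48% of macrophages (3.19%–6.10%), and other partners 4.69% and 4.25%. The resident share of control members was thus close to that of control macrophages, while the Ccr2 share was higher by a ratio of 2.09, with intervals that overlapped, and no difference was tested. The resident share depends on the method. It was 38.3% in the control and 30.9% in the ISO library with references pooled over both libraries, and 4.69% and 2.66% by the largest marker list sum per C1q UMI, where abundant MHC class II transcripts enter unscaled.

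In the ISO library, 76 of 188 members had a resident partner (40.4%; 33.3%–47.8%), against 33.1% of 981 macrophages (30.2%–36.2%). Ccr2 partners made up 13.8% of members (9.24%–19.6%) and 22.6% of macrophages (20.05%–25.4%). The Ccr2 state was thus assigned less often to ISO members than to ISO macrophages. MHC class II high partners made up 8.51% of members (4.94%–13.5%) and 3.57% of macrophages (2.50%–4.93%), and other partners 4.79% and 4.18%. With all comparators as the reference, Ccr2 partners made up 6.91% of ISO members. By that reference MHC class II high partners made up 16.5%, other partners 11.7% and resident partners 43.1%. These comparators themselves held monocyte transcripts. The limit of 10 C1q UMIs applied to members and macrophage barcodes alike.

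The fit did not read every state equally well. Held-out resident macrophages were returned to their state in 83.5% of cases in the control and 87.5% in the ISO library. Ccr2 macrophages were returned in only 25.2% and 38.9%, MHC class II high macrophages in 74.0% and 30.3%, and other macrophages in 47.4% and 21.3%. Of ISO macrophages high in MHC class II, 36.4% were given the resident state, as were 54.1% of other macrophages and 22.1% of 475 Ccr2 macrophages. By marker limits, 17.9% of ISO macrophages were resident and 48.4% were Ccr2, while the fit gave 33.1% and 22.6%. The fit thus gave the resident state to more ISO macrophages than the marker limits did, and the Ccr2 state to fewer. The shares of these states, the resident one among them, are therefore uncertain, also where members and macrophages differ in the ISO library. Macrophages were fitted with held-out references and members with the full ones, and the part of that in these differences was not tested.

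**Figure D3:**
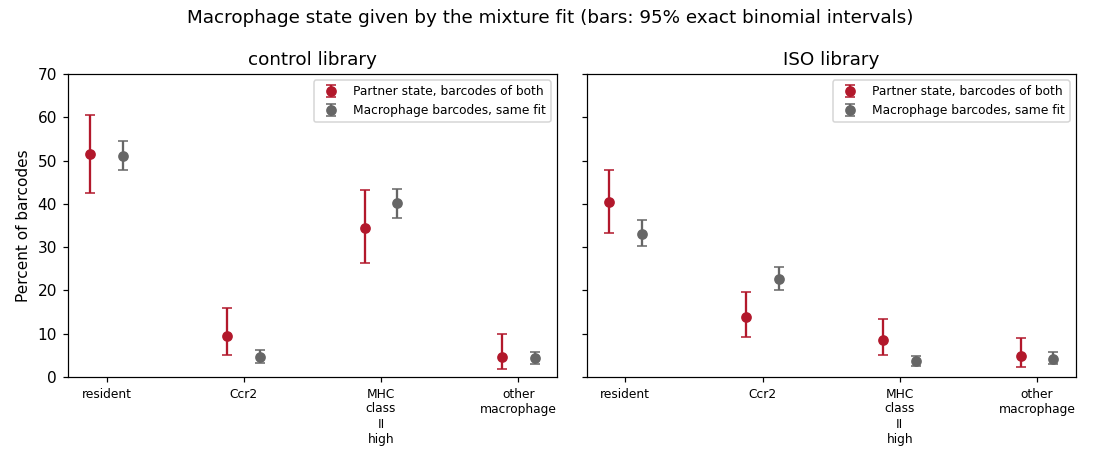
Percent of members and of macrophage barcodes given each of 4 macrophage states by the mixture fit in the control and ISO libraries, with exact 95% intervals. Macrophage barcodes were held out of the references used to fit them, while members were fitted with the full references. Resident is the most frequent partner shown in both by this fit, at 51.6% and 40.4%.

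State genes counted per 1000 C1q UMIs gave a description without a fit. ISO comparators, with 79 C1q UMIs in all, held 12420 UMIs of the osteopontin gene Spp1, 5323 of Fn1, 1449 of Ccr2, 1153 of H2-Aa, 701 of Pf4 and 351 of Mrc1, so these genes do not come from a C1q-bearing partner alone. In the control, Lyve1 stood at 24.5 UMIs in members and 26.1 in macrophages, Folr2 at 32.6 and 33.1, and Timd4 at 6.72 and 5.59. The scavenger receptor gene Cd163 stood at 26.9 and 30.1. The resident genes of control members were thus close to those of all control macrophages. In the ISO library, Lyve1 stood at 17.2 and 19.3, Folr2 at 14.1 and 16.1, and Cd163 at 24.9 and 23.7. The MHC class II gene H2-Aa was higher in members, at 497 and 419 in the control and 196 and 143 in the ISO library. B cells and dendritic cells transcribe it too, and their markers were found in some members. Ccr2 stood at 91.6 in ISO members and 121 in ISO macrophages, but at 19.2 and 13.6 in the control. Mrc1 stood at 82.9 and 57.2 in the ISO library, Pf4 at 323 and 244, and Spp1 at 766 and 1132. Fn1, which encodes fibronectin, was nearly equal at 372 and 377. Per C1q UMI, ISO members held less Ccr2 and Spp1 than ISO macrophages and more H2-Aa, Mrc1 and Pf4, and the part of RNA from outside a C1q-bearing partner in these differences was not tested.

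Gene levels were then compared as summed UMIs in CPM, with a gene called higher or lower at 2-fold or more. The contrast with comparators was used by the rule, so its counts are a background only. In the control, 25.4% of 8162 genes were higher in members (2075 genes) and 7.02% were lower (573 genes). Among ISO members, 5.27% of 9414 genes were higher (496 genes) and 0.871% lower (82 genes). Against low-monocyte comparators, 35.3% of 8470 genes were higher in ISO members and 13.2% lower. Over that comparison the macrophage markers were higher in 12 of 12 genes, with a median log2 ratio of 3.22 beside 0.41 over all genes, though Csf1r and Emr1 on this list helped to choose those comparators. Neutrophil markers were lower in 13 of 13 genes compared, with a median of −2.17, as a share of the members' larger RNA content. Mmp9 stood at 373 CPM in control members, 1281 in comparators and 17.9 in macrophages. Its ISO levels were 409.8 in members, 1903 in low-monocyte comparators and 35.9 in macrophages. Mrc1 stood at 795 CPM in control members, 10.5 in comparators and 1025 in macrophages. For Mmp9 and Mrc1, members thus lay between neutrophils and macrophages in the control.

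Resident genes were higher in members than in comparators. In control members Lyve1 stood at 214 CPM and in comparators at 2.09 CPM, from 1 UMI. In ISO members it stood at 90.2 CPM and in comparators at 2.28 CPM. Of the resident list, 7 of 7 genes compared were higher in members in each library. Over all genes the share was 25.4% in the control and 5.27% in the ISO library, and the rule used this contrast. The list medians were 5.17 in the control and 3.71 in the ISO library, beside 0.30 and 0.10 over all genes. Of the 7 MHC class II genes, 7 were higher in the control. Among ISO members 0 passed 2-fold against all comparators, with a median of 0.89. Against low-monocyte comparators 6 did, with a median of 3.03, beside 35.3% of all genes and their median of 0.41. Among genes outside the lists, the chemokine gene Ccl12 and the transporter gene Slco2b1 had 0 UMIs in control comparators and stood at 159.8 and 131 CPM in control members. In the ISO library Cd163 stood at 130.1 CPM in members and 10.9 in comparators, and Pf4, a chemokine gene of platelets and macrophages, at 1693 and 319. Of 7 monocyte-derived macrophage genes, 0 were higher by 2-fold in ISO members than in ISO comparators, which carried these transcripts too. Against low-monocyte comparators 5 of 7 were higher, beside the same 35.3% of all genes, with a median of 1.55. Ccr2, Ly6c2 and Fn1 on this list were among the genes that chose those comparators, so this count is partly built in.

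Against macrophage barcodes, 7.64% of 10988 genes were higher in control members and 3.69% lower. In the ISO library 5.85% of 11079 genes were higher and 1.53% lower. This contrast was also used by the rule. Neutrophil markers were higher in 11 of 11 genes compared in the control and 14 of 14 in the ISO library. Over the 12 macrophage markers, 0 passed 2-fold in either library, with median log2 ratios of −0.55 in the control and −0.20 in the ISO library, beside 0.03 and 0.01 over all genes. In the control 0 of 12 lay above 0 and in the ISO library 3 of 12, so as a share of UMIs most macrophage markers were lower in members, by less than 2-fold. Lrg1, which encodes a secreted glycoprotein of neutrophil granules, had 0 UMIs in control macrophages and 122 CPM in control members. Lcn2, which encodes the iron-scavenging granule protein lipocalin 2, stood at 185 CPM in control members and 0.843 in control macrophages.

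Comparing members with their own fitted mixture asked which genes departed from a plain sum of the references. In the control, with all comparators as reference, 0.698% of 9306 genes were at least 2-fold above the mixture and 0.892% below it. In the ISO library the shares were 0.682% and 0.434% of 9683 genes. With low-monocyte comparators, 0.805% of 9311 genes in the control were above and 0.816% below, and 0.882% and 1.56% of 9746 genes in the ISO library. The rest of the genes lay within 2-fold of the sum of their references. The mixture is fitted to the same UMIs, so closeness is partly built in.

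Uptake of neutrophils by macrophages was followed through 20 efferocytosis genes, among them the receptor genes Mertk and Axl, the bridging factor gene Gas6 and the cholesterol exporter gene Abca1. Mertk stood at 66.8 CPM in control members and 84.0 in macrophages, and at 47.2 and 42.5 in the ISO library. Axl stood at 133 and 209 in the control and at 73.2 and 59.7 in the ISO library. In CPM, the receptors were thus lower in control members than in macrophages and higher in ISO members, by less than 2-fold. Per 1000 C1q UMIs, Mertk stood at 7.65 and 6.39 in the control and at 9.02 and 7.27 in the ISO library. The direction of Mertk in the control thus depends on the scaling. Of 19 efferocytosis genes compared with the mixture of low-monocyte comparators and other references, 0 passed 2-fold in either library. Their median log2 ratio was 0.06 in the control and 0.14 in the ISO library, beside 0.05 and 0.02 over all genes. Against macrophages, 1 of 20 was higher and 2 lower in the control, beside 7.64% and 3.69% of all genes. The control median was −0.45 beside 0.03 over all genes, with 2 of 20 above 0, so as a share of UMIs most were lower. In ISO members 0 were higher and 1 lower, beside 5.85% and 1.53%, with a median of 0.01 and 10 of 20 above 0. Counts at 2-fold were thus near those over all genes. The counts hold no measure of cell size, image or protein, and captured pairs, adherent cells and uptake cannot be told apart by them.

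A few genes did depart from the mixture of low-monocyte comparators and other references. Mgl2, a lectin gene of macrophages and dendritic cells, stood at 170.4 CPM in ISO members and 74.1 in macrophages. It exceeded the mixture by a log2 ratio of 1.14 in the ISO library and 0.56 in the control. Ccl12, which encodes a monocyte-attracting chemokine, stood at 770.3 CPM in ISO members and 490.4 in macrophages, a log2 ratio of 1.08 over the mixture. In the control Ccl12 was at −0.16, so its excess appeared in the ISO library only. Mrc1 was above the mixture in both, by 0.44 and 0.59. Of T cell markers, 3 of 4 genes compared lay above the mixture by 2-fold in each library, with medians of 1.70 and 1.38, beside 0.805% of all genes in the control and 0.882% in the ISO library. NK cell markers, which share a fitted reference with T cells, went the other way in the control, with 6 of 6 below by 2-fold, beside 0.816% of all genes, and a median of −1.47. Among ISO members 0 of 5 passed 2-fold either way, with a median of 0.56. T cell markers reached 3 UMIs in 21 control members and 16 ISO members, and their part in that excess was not tested.

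The predicted noncoding gene Gm26924 lay far below the mixture in the control. It stood at 19556 CPM in control members, 19422 in comparators and 59157 in macrophages, and its log2 ratio to the mixture was −1.31. In ISO members it stood at 7860 CPM, in low-monocyte comparators at 8526 and in macrophages at 10927, with a log2 ratio of −0.54. Control members thus resembled neutrophil barcodes for this transcript, while ISO members lay below both groups. Control macrophages of 10000 or more UMIs held a median of 5.30% Gm26924, all macrophages 5.67%, members 1.74% and comparators 1.75%. ISO macrophages of that depth held 0.677%, members 0.637% and comparators 0.690%. Lars2, the gene of a mitochondrial leucyl-tRNA synthetase, was likewise below the mixture, with log2 ratios of −0.96 in the control and −0.69 in the ISO library. Gzma, a granzyme gene of NK and T cells, had a log2 ratio of −1.87 in the control, where 71 of the 95 UMIs of members came from 1 barcode. Fabp4, a fatty acid-binding protein gene of endothelial cells, had the lowest ratio among the named genes in the ISO library, at −2.19. The low-monocyte comparators of that library held 275 of its UMIs, 183 of them in 1 barcode, so most of the reference level came from a single barcode.

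Between the libraries, 6.79% of 9718 genes were higher in ISO members than in control members (660 genes) and 13.6% were lower (1317 genes). The median log2 ratio over all genes was −0.18. Most listed genes of recruited macrophages were higher in ISO members. Spp1 stood at 11.6 CPM in control members and 4009 in ISO members, a log2 ratio of 8.39. Fn1 stood at 9.30 and 1948 CPM. Chi3l3, which encodes a chitinase-like protein, stood at 9.88 and 1577 CPM. Of the monocyte-derived list 6 of 7 genes were higher, with a median of 1.52. Barcodes of other lineages carried these transcripts as well. In ISO B cell barcodes of few C1q UMIs, Spp1 stood at 4133 CPM and Fn1 at 1779 CPM, so their level in members is not separated from what unrelated barcodes held. The low-monocyte comparators stood lower for Spp1, at 209 CPM. Their low Fn1 level is fixed by the limit that chose them. The serum amyloid gene Saa3 had 0 UMIs in control members and 190.1 CPM in ISO members, beside 310.3 CPM in ISO B cell barcodes.

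Most listed resident and MHC class II genes were lower in ISO members. Of 8 resident genes, 0 were higher and 6 lower in ISO members, beside 6.79% and 13.6% of all genes, with a median log2 ratio of −1.73 beside −0.18. Folr2 stood at 285 CPM in control members and 73.9 in ISO members, and Timd4 at 58.7 and 13.2. Of 7 MHC class II genes, 5 were lower, beside the same 13.6%, with a median of −1.81, and H2-Aa stood at 4343 and 1023 CPM. B cells and dendritic cells transcribe H2-Aa too. Of B cell markers 6 of 6 were lower, and of 6 dendritic cell markers 3 were lower and 1 higher. Their part in the lower MHC class II levels was not tested. Retnla, a marker gene of alternatively activated macrophages, stood at 209.8 CPM in control members and at 1.04 in ISO members, from 3 UMIs. Macrophages moved the same way, with Folr2 at 434 and 93.7, Timd4 at 73.5 and 14.2, and Retnla at 311 and 5.85 CPM. For Folr2, Timd4 and Retnla, members thus followed the macrophages of their library.

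Some neutrophil genes rose between the libraries. Of 13 neutrophil markers compared, 4 were higher and 0 lower in ISO members, beside 6.79% and 13.6% of all genes, with a median log2 ratio of 0.14. Mmp9 stood at 373 and 409.8 CPM, and Hdc at 901 and 609.6 CPM. Lcn2 rose from 185 to 910.1 CPM and G0s2, which encodes an inhibitor of fat breakdown, from 842 to 1983 CPM. Low-monocyte comparators moved the same way, with Lcn2 at 834 and 3340 CPM and G0s2 at 3372 and 10839 CPM. Of the 10 granule genes 5 could be compared, with 3 higher and 0 lower and a median of 2.30, while Elane, an early granule gene, had 0 UMIs in members of both libraries. Ngp, a granule gene of maturing neutrophils, had 4 UMIs in control members and 121 in ISO members.

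Of 13 activation genes, 5 were higher and 1 lower in ISO members, beside 6.79% and 13.6% of all genes, with a median of 0.78. Cxcl2, which encodes a neutrophil-attracting chemokine, stood at 4835 and 19525 CPM. Il1b, the gene of the cytokine interleukin-1β, stood at 8477 and 13733 CPM. Cxcr4, a receptor found on aged neutrophils, was lower at 664 and 264 CPM. Macrophages and neutrophils both carry Cxcl2 and Il1b, so their level in members has no lineage of its own. Of 8 interferon-stimulated genes, 0 passed 2-fold either way, with a median of −0.06. Of 20 efferocytosis genes, 3 were higher and 3 lower, with a median of −0.33, and the lower count was near the share over all genes.

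B cell and T cell transcripts fell in ISO members. Of 6 B cell markers, 6 were lower, beside 13.6% of all genes, with a median log2 ratio of −2.93, and Igkc, the gene of the immunoglobulin κ chain, stood at 218 and 29.8 CPM. Of 4 T cell markers compared, 4 were lower, beside the same 13.6%, with a median of −1.49. B cell barcodes themselves, at 3 or more marker UMIs outside the neutrophil limits, numbered 2184 in the control and 190 in the ISO library. Of 5 NK cell markers 1 was higher and 0 lower. Of 5 group 2 innate lymphoid markers 2 were higher and 2 lower, and of 6 dendritic cell markers 1 was higher and 3 lower. Over all genes 6.79% were higher and 13.6% lower. Of 6 classical monocyte markers, 4 were higher and 0 lower, beside the same shares, with a median of 1.38. Of 12 macrophage markers, 1 was higher and 2 lower, with a median of −0.56, near the 6.79% and 13.6% over all genes.

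Markers of cells outside the leukocyte gate were present at low levels. The 6 cardiomyocyte markers summed to 123 CPM in control members, 60.7 in comparators and 151 in macrophages, and to 105, 50.1 and 62.4 CPM in the ISO library. Against comparators, 4 of 5 genes compared were higher in control members and 4 of 6 in ISO members, beside 25.4% and 5.27% of all genes. Against macrophages 0 of 6 and 2 of 6 were higher, beside 7.64% and 5.85% of all genes. Low-monocyte comparators differed, with 161 CPM in the ISO library from 20 UMIs. Against them 0 of 5 genes were higher in members and 2 were lower, beside 35.3% and 13.2% of all genes. The direction in the ISO library thus depends on the comparators. Of fibroblast markers 1 gene could be compared between ISO and control members and 0 changed by 2-fold. Of endothelial markers 1 of 2 was higher and 1 lower, and of 6 cardiomyocyte markers 0 changed by 2-fold. The myosin gene Myh6 had 12 UMIs in control members and 18 in ISO members. Of platelet markers only Ppbp could be compared, with 5 UMIs in control members and 306 in ISO members, beside 72.7 CPM in ISO macrophages and 106.2 CPM in ISO members. No hemoglobin, mast cell or basophil gene reached the minimum of 20 UMIs in the comparison of ISO with control members.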

How the data were processed

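The deposited UMI counts were used. By the submitters' notes, the authors made them with bcl2fastq 2.19.1.403, UMI-tools 1.0.0, STAR 2.7.3a and featureCounts 1.6.4 (Subread) on mm10, and the annotation release was not named. All later steps used Python 3.11.15, numpy 2.4.6, scipy 1.17.1, pandas 2.3.3 and matplotlib 3.10.9, and were tested on simulated data. Members and gene lists were chosen with earlier results of these data known. The monocyte gene sum and the low-monocyte comparators were chosen after the data were seen. Log2 ratios add 0.5 UMI and take genes of 20 or more UMIs in the groups compared. Mixtures were fitted by expectation maximization of a multinomial, with held-out references. Named genes are the rule genes, list genes and, for each contrast, the 10 with the largest ratio each way at 100 CPM and 50 UMIs or more. Wfdc21, Kcnq1ot1 and Ighd are not in the files, and Adgre1, Chil3 and Siglecf are there as Emr1, Chi3l3 and Siglec5. Positions come from GENCODE M21.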

Additional observations from a re-analysis of the deposited data

Results flagged for a closer look

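Barcodes outside the cell filters, which the comparisons do not use, were searched for the same limits. Of 77 such ISO barcodes, 11 met them (14.3%; 7.35%–24.1%), above the 5.59% of 286 control barcodes (16; 3.23%–8.93%). All of them lay over the gene limit, where they made up 16 of 134 barcodes in the control and 11 of 65 in the ISO library. The difference between the libraries was not tested.

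Among the most changed genes, 3 differed in direction between the libraries in the log2 ratio of members over comparators, each by more than 2-fold either way. Gzma had −2.58 in the control and 6.45 in the ISO library. Its UMIs came from few barcodes, with 95 UMIs in 6 control members, 158 in 8 control comparators and 171 in 8 ISO members, beside 1 UMI in ISO comparators. Nkg7, a cytotoxic granule gene, had −1.09 and 5.35, with 51 UMIs in 7 control members, 30 in 4 control comparators, 80 in 15 ISO members and 1 in ISO comparators. AW112010 had −1.44 and 1.38. It had 121 UMIs in 43 control members and 91 in 9 control comparators, 53 of them in 1 barcode. These differences were not tested.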

How the results depend on the processing

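Over 172 values recomputed for 18 results, 130 stayed within the interval (for gene counts, 1.5 times) of the reported value and 42 moved past it. The cause of these moves was not tested unless the setting itself shows it.

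With S100a8 and S100a9 at 0.5% of UMIs or more, members were 3.33% of kept control barcodes, 4.86% of kept ISO barcodes and 56.3% of control neutrophil barcodes. At 2% or more they were 1.31% and 1.78% of kept barcodes, and 37.8% and 36.2% of neutrophil barcodes. With barcodes of another lineage (2 or more marker UMIs) left out, members were 1.12% and 2.65% of kept barcodes and 35% of control neutrophil barcodes. In those members the macrophage share was 66.1% and 39.3%, the control depth ratio 3.20 and the control ratio of neutrophil UMIs to comparator depth 0.944, below 1 where the reported ratio of 1.15 is above it. After thinning to 2000 UMIs, which left out 253 control and 3 ISO barcodes, members were 1.34% and 1.25% of kept barcodes, and 32.6% and 20.1% of neutrophil barcodes. Barcodes that passed the neutrophil limits fell to 221 and 339. The order of the libraries in the share of kept barcodes, 2.27% and 3.46% as reported, therefore no longer held at equal depth.

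The ratio of mean depths was 3.69 in the control. References pooled over both libraries gave macrophage shares of 53.3% and 43.1%, and resident partners in 38.3% and 30.9%. A fit with 1 macrophage reference gave a macrophage share of 23.0% in the ISO library. With rule genes in the fit, the ISO ratio of neutrophil UMIs to comparator depth was 0.687. By the largest marker list sum per C1q UMI, where abundant MHC class II transcripts enter unscaled, resident partners were 4.69% and 2.66%. With comparators of 1 or fewer monocyte UMIs, chosen after the data were seen, the ISO depth ratio was 3.48, the ISO macrophage share 59.2%, and 2993 genes were higher and 1118 lower.

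Without a UMI minimum, 3537 genes were higher and 1936 lower in control members than in comparators, and 3022 and 1661 in ISO members. At a minimum of 100 UMIs the counts were 647 and 300 in the control and 103 and 9 in the ISO library, since fewer genes were compared. The mean of CPM per barcode gave 762 and 164 in the ISO library, and adding 1 CPM gave 52 lower genes.

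Leaving out the barcodes shared by the libraries, a C1q minimum of 5 or 20 UMIs, Retnlg and Cxcr2 without Csf3r, a mitochondrial limit of 10%, no upper gene limit, and comparators of 0 C1q UMIs moved no value past its interval.

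Each group is 1 library of pooled hearts, so variation between animals is unknown. The ISO low-monocyte reference rests on 31 barcodes. Ly6g could not be read, and the counts hold no image, protein or genotype that would separate captured pairs from adherent cells or uptake.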
